A study of Mus musculus with 2 samples.

Results

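The fibroblast growth factor (FGF) genes described here are 6 ligands (Fgf3, Fgf4, Fgf5, Fgf8, Fgf10 and Fgf15) and 4 receptors (Fgfr1, Fgfr2, Fgfr3 and Fgfr4), chosen by symbol from the 32285 genes counted. With them go all accessibility peaks within 50 kb of their listed starts, 200 of 229480 peaks. Both assays came from 1 pool of mouse embryos at embryonic day 7.0 (E7.0), the stage of gastrulation, read together from the same nuclei. The 2 groups were the E7.0 RNA library and the E7.0 accessibility library (1 each), with no treatment named and RedMUC298trTg given as the strain of both. How many embryos were pooled is not given, and barcodes carry no mark of their embryo. The labels conflicted, since the cell type entry named goblet cells and the tissue entries named small intestine and distal colon. Whether the strain entry given with them holds for these embryos could not be checked. In the nuclei kept, the goblet cell genes Muc2, Tff3, Clca1, Agr2, Fcgbp and Spdef had 17, 6, 5, 12, 39 and 122 UMIs (unique molecular identifiers, the counted RNA molecules) in all. Vil1, a gene of absorptive epithelia that the visceral endoderm also uses, had 3994. With 1 library per assay there were no replicates and no test was possible. The intervals given are exact 95% intervals and cover counting error only, not variation between embryos or libraries.

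FGF ligands are secreted proteins that bind tyrosine kinase receptors together with heparan sulfate on the cell surface. The receptors signal through the adaptor Frs2 to Ras and the MAP kinases, and the pathway switches on its own inhibitors, among them the Sprouty and Spred proteins and Il17rd. In the gastrulating mouse, Fgf8 and Fgfr1 are known for their need in moving cells through the primitive streak, the site where epiblast cells become mesoderm. Fgf4 is known as the embryonic signal that sustains trophoblast stem cells, which receive it through Fgfr2. Fgf5 is a marker of the epiblast after implantation, Fgf10 is best known from limb and lung buds, and Fgf15 is the mouse counterpart of human FGF19, a hormone that in the adult acts on Fgfr4 and the co-receptor Klb.

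Cell classes were built so that the 10 genes did not define them. RNA levels were read in clusters made from accessibility alone, with the 200 peaks left out, and accessibility was read in clusters made from RNA alone, with the 10 genes and 64 further pathway genes left out. Clusters were named from marker genes. Of the 12796 nuclei kept, 1354 stayed unnamed. Their median was 3543 UMIs against 10471 in all nuclei kept, but 14225 in an unnamed cluster of 453 nuclei. The named nuclei fell into 9 accessibility classes: epiblast-like (3595 nuclei), primitive streak-like (1028, here streak-like), embryonic mesoderm-like (1272, mesoderm-like), haemato-endothelial progenitor-like (920, haemato-endothelial-like), anterior streak, node and definitive endoderm-like (1055, node-like), visceral endoderm-like (1656), parietal endoderm-like (330), extraembryonic ectoderm-like (1227) and ectoplacental cone and giant cell-like (359, ectoplacental cone-like for short). Each class had its own marker list higher than all other nuclei, with 8 of 9 genes higher in the node-like class and every listed gene higher in the others. The names were given from these same lists, so this is no test of them. Some names were less clear-cut than others. No epiblast marker was among the 10 leading genes of the epiblast-like clusters. The same held for visceral endoderm markers in the visceral endoderm-like clusters. In the epiblast-like class anterior ectoderm markers summed to 281.7 CPM (the usual per-library scaling of UMIs, applied to the summed UMIs of a class) against 112.7 elsewhere. The parietal class also had all 10 visceral endoderm markers higher than other nuclei, at a sum of 8854 against 3218 CPM. It held 330 nuclei here but 28 at clustering resolution 2 and 27 with doublet calls kept. At a minimum of 2000 UMIs and 2000 peak counts it held 29, so its values rest on the clustering used. Its median was 2818.5 accessibility fragments per nucleus, against 7414 to 11794.5 in the other named classes. The part of this low depth in its make-up was not tested. The ectoplacental cone-like class was named from a joint list for ectoplacental cone and giant cells. Its leading genes began with Prl3d1, Prl3d2, Adm and Prl3d3, and the 2 cell types were not separated. This class had extraembryonic ectoderm markers at 785.2 against 133.1 CPM, close to the 762.9 CPM of the class named for them. The mesoderm-like class had all 9 streak markers higher, at 1129 against 408.5 CPM, and the haemato-endothelial-like class had all 10 embryonic mesoderm markers higher, at 375.0 against 198.9 CPM. Streak markers were also higher in the node-like class, 6 of 9 genes and 766.8 against 458.2 CPM. Extraembryonic mesoderm markers, a list that named no class here, summed to 1074 CPM in the haemato-endothelial-like class against 219.3 elsewhere, and to 445.9 against 253.3 in the mesoderm-like class. In these classes 7 and 5 of the 8 genes were higher. The sum was also higher in the extraembryonic ectoderm-like (519.2 against 240.4 CPM) and ectoplacental cone-like classes (418.4 against 267.9 CPM), with 3 and 2 of 8 genes higher. That list named a class of 548 nuclei at resolution 2 and of 312 nuclei with 20 components, where the haemato-endothelial-like class held 645 and 360 nuclei. The part of these mixtures in the levels below was not tested. The RNA clusters gave the same names except ectoplacental cone, so accessibility is reported for 8 classes. These RNA-defined classes held 3352 epiblast-like, 1243 streak-like, 1539 mesoderm-like, 648 haemato-endothelial-like, 1014 node-like, 1624 visceral endoderm-like, 176 parietal endoderm-like and 1068 extraembryonic ectoderm-like nuclei, with 2132 unnamed.

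Of the 10 genes, 9 were at least 2-fold higher in 1 or more classes than in all other nuclei with an interval above 1, the rule used here for RNA. The exception was Fgfr1. Over all 17686 genes with at least 50 UMIs, 41.9% met the same rule. In the ectoplacental cone-like class 8 of the 10 were at least 2-fold lower than in other nuclei, against 18.9% of all genes. In the extraembryonic ectoderm-like class 7 were lower by this rule, against 24.3% of all genes, and in the visceral endoderm-like class 6, against 24.7%. The plot of RNA by class shows these patterns side by side. Fewer molecules per nucleus and fewer expressing cells within a class cannot be told apart in summed counts.

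**Figure D1:**
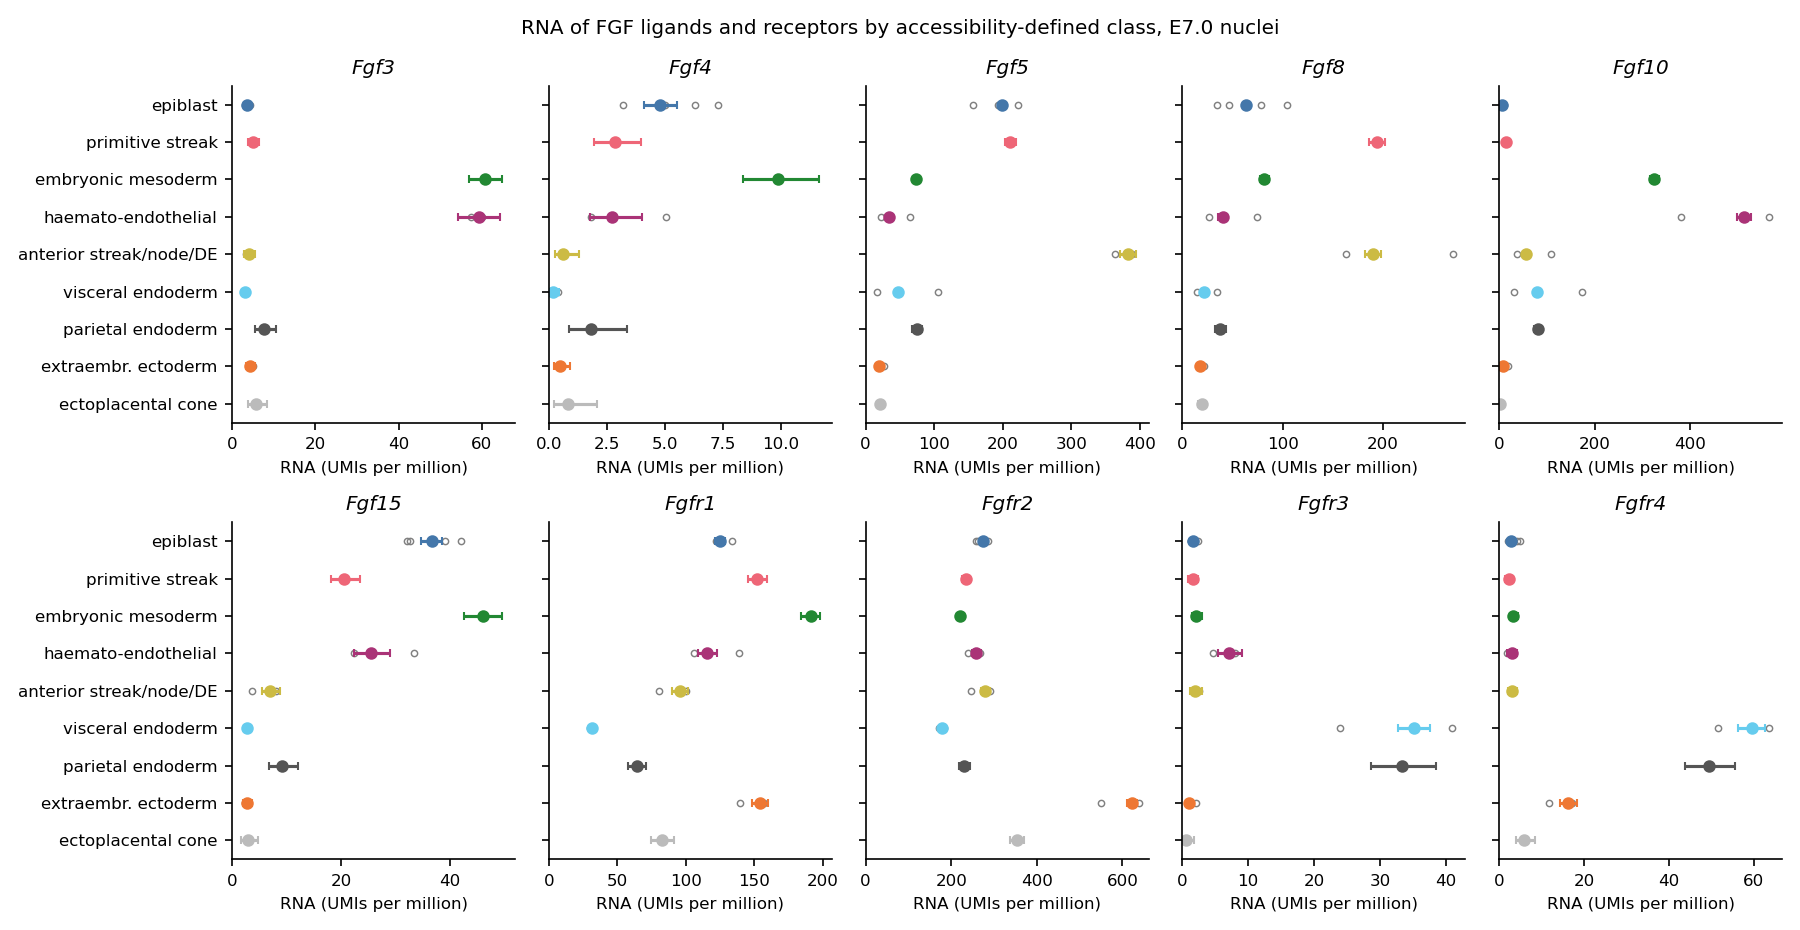
RNA of the 6 FGF ligands and 4 receptors in the 9 accessibility classes, 1 panel per gene, with the level in CPM on the horizontal axis; filled points are class levels with exact 95% counting intervals and open points are the clusters of a class where it has several. Fgf3 and Fgf10 are highest in the mesoderm-like and haemato-endothelial-like classes, Fgf5 and Fgf8 in the streak-like and node-like classes, Fgfr2 in the extraembryonic ectoderm-like class, and Fgfr3 and Fgfr4 in the visceral and parietal endoderm-like classes.

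Promoter sequences from RefSeq (build GRCm38.p6, 250 bases before to 50 after a start) were available for 7 of the 10 genes, Fgf3, Fgf4, Fgf5, Fgf10, Fgfr2, Fgfr3 and Fgfr4. They were searched on both strands for 10 motifs: CTTTGTT (SOX), ATGCAAAT or ATGCTAAT (octamer), AGGTGTGA (T-box), CCGGAAGT (ETS), CTTTGAT (TCF), AGATAA (the GATA-factor motif), TGTTTAC (FOX), GGAATG (TEAD), GTTAAT (HNF1) and TTTATGG (the CDX motif). Of the 8 windows, 3 held a match, and these are shown because their genes led in the mesoderm-like, haemato-endothelial-like and visceral endoderm-like classes. Capitals mark the matches. The Fgf3 window (chr7:144838362-144838661, plus strand) has the GATA letters on the minus strand, read as TTATCT 115 bases before the start, and the TEAD letters on the minus strand, read as CATTCC 214 bases before it. The Fgf10 window (chr13:118714449-118714748, plus strand) has the FOX letters 11 bases before the start, and the Fgfr4 window (chr13:55152568-55152867, plus strand) has the TEAD letters on the minus strand 2 bases after it.
Fgf3 promoter: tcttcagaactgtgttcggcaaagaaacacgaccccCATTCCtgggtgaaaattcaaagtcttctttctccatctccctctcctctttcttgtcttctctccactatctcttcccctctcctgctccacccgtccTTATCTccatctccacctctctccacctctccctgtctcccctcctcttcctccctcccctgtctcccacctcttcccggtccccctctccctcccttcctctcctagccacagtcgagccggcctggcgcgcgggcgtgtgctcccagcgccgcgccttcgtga
Fgf10 promoter: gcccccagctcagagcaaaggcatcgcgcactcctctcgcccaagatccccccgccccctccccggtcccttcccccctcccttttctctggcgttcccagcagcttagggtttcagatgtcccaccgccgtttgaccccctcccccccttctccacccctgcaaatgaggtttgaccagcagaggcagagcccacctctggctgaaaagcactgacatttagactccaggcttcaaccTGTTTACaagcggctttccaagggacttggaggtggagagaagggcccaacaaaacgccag
Fgfr4 promoter: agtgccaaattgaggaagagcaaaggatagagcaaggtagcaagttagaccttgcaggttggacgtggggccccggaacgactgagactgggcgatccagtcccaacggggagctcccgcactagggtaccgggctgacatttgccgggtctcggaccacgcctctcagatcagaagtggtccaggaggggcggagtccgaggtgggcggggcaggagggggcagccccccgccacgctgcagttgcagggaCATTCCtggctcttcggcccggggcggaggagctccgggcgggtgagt
Among all 32851 windows of this length, 11.2% held the GATA letters, 14.7% the TEAD letters and 3.65% the FOX letters, so such matches are common and describe letters only.

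The promoter windows differed in base composition. Fgf4, Fgf5 and both Fgfr3 windows were 68.3% to 73.0% G and C with 26 to 30 CpG dinucleotides, against a median of 52.7% and 7 over all windows. Fgf10 had 10 CpG at 60.7% and Fgf3 had 14 at 59.3%. The Fgfr2 window had 43.7% and 4 CpG, but it lies at the RefSeq start, away from the start listed in the files, and 30 of its 300 bases are in a peak, against 196 to 300 in the other windows. The Fgf4 window (chr7:144861136-144861435, plus strand) is shown as the CpG-rich kind, with each CG in capitals.
Fgf4 promoter: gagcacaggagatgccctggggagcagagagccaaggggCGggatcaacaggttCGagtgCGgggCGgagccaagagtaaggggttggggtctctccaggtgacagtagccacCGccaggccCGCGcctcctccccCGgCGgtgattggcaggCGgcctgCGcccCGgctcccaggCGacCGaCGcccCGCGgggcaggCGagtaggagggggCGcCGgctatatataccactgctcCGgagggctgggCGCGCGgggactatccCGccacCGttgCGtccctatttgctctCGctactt
It held 28 CpG and none of the 10 motifs.

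Fgf8 and Fgf5, the ligands of the streak and the epiblast, were highest in the streak-like and node-like classes. Fgf8 stood at 193.8 CPM in the streak-like class and 189.9 CPM in the node-like class, 3.04-fold (2.90 to 3.18) and 2.94-fold (2.80 to 3.09) above all other nuclei. These pooled levels did not differ beyond counting error, with a ratio of 1.02 (0.961 to 1.08). The node-like level pooled 2 unlike clusters, at 163.3 CPM (154.7 to 172.2) and 269.1 CPM (250.3 to 289.0). They lay below and above the streak-like interval of 185.9 to 202.0 CPM. The part of the streak markers seen in the node-like class in its Fgf8 level was not tested. Below them came the mesoderm-like class at 81.6 CPM and the epiblast-like class at 63.6 CPM, and then the haemato-endothelial-like class at 40.0 CPM and the parietal endoderm-like class at 37.5 CPM. The visceral endoderm-like, ectoplacental cone-like and extraembryonic ectoderm-like classes had 21.5, 19.2 and 18.0 CPM, with no neighbours among them distinguishable, and the haemato-endothelial-like and parietal levels also overlapped. The 4 epiblast-like clusters were uneven for Fgf8, from 34.4 to 104.0 CPM, as were the haemato-endothelial-like clusters, at 26.3 and 74.8 CPM.

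Fgf5 led in the node-like class, at 382.5 CPM (371 to 394), 3.20-fold (3.09 to 3.31) above other nuclei. The streak-like and epiblast-like classes followed at 211 and 199 CPM, so the epiblast-like level was 1.67-fold above other nuclei and short of the 2-fold rule. Levels in the parietal endoderm-like and mesoderm-like classes, 74.4 and 73.7 CPM, overlapped in their intervals. The visceral endoderm-like class averaged 46.8 CPM over clusters at 16.3 and 105.5 CPM, the haemato-endothelial-like class had 34.7 CPM, and the ectoplacental cone-like and extraembryonic ectoderm-like classes had 21.3 and 19.8 CPM, which also overlapped. Between streak-like and epiblast-like nuclei Fgf5 differed by 1.06-fold (1.02 to 1.11) and Fgf8 by 3.05-fold (2.88 to 3.23). After thinning nuclei with at least 5000 UMIs to that depth, 53.6% of those with an Fgf8 UMI also had one of Fgf5. Among those without, the share was 34.5%. Within the epiblast-like class the shares were 58.7% and 55.6%, with overlapping intervals. They were 27.7% and 14.4% in the visceral endoderm-like class and 20.8% and 10.4% in the haemato-endothelial-like class, without overlap. In all other classes the intervals overlapped, with the order reversed in the ectoplacental cone-like class.

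Fgf10 and Fgf3 were highest in the mesoderm-like and haemato-endothelial-like classes. Fgf10 reached 511.7 CPM in the haemato-endothelial-like class, 7.39-fold (7.14 to 7.66) above other nuclei, and 324.6 CPM in the mesoderm-like class, 4.56-fold (4.40 to 4.72). Between streak-like and mesoderm-like nuclei its level differed 23.3-fold (19.9 to 27.4), from 13.9 CPM. A middle tier held the parietal endoderm-like, visceral endoderm-like and node-like classes at 80.8, 79.4 and 55.5 CPM, of which the first pair overlapped. In the visceral endoderm-like class this level came unevenly from its clusters, 30.9 and 172.7 CPM, the higher one a cluster of 543 nuclei. The extraembryonic ectoderm-like, epiblast-like and ectoplacental cone-like classes were lowest, at 7.76, 5.93 and 3.07 CPM.

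Fgf3 had 2 high classes and 7 low ones. It stood at 60.8 CPM (56.9 to 64.9) in the mesoderm-like class and 59.3 CPM (54.4 to 64.5) in the haemato-endothelial-like class, a ratio of 1.03 (0.922 to 1.14). All other classes lay between 2.97 CPM (visceral endoderm-like) and 7.69 CPM (parietal endoderm-like), and no neighbours in that order differed beyond counting error. The ends of the order did, by 2.59-fold (1.72 to 3.86). The mesoderm-like level was 7.44-fold (6.80 to 8.14) above all other nuclei. The extraembryonic mesoderm markers given above were also higher in the mesoderm-like and haemato-endothelial-like classes, as in the extraembryonic ectoderm-like and ectoplacental cone-like ones. Their part in the Fgf3 and Fgf10 levels was not tested.

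Fgf4 and Fgf15, neighbours of Fgf3 on chromosome 7, followed another order. Fgf4 was sparse, with 425 UMIs in all. It was highest in the mesoderm-like class at 9.90 CPM (8.37 to 11.6), 4.66-fold (3.79 to 5.71) above other nuclei, and next in the epiblast-like class at 4.80 CPM, 2.13-fold (1.75 to 2.59). The streak-like and haemato-endothelial-like classes had 2.84 and 2.73 CPM, and the other classes 0.175 to 1.83 CPM, with 4 UMIs over the whole visceral endoderm-like class. The mesoderm-like lead of Fgf4 was larger with a stricter depth minimum, at a log2 fold of 3.0 against 2.22. The class itself then held 733 nuclei against 1272, and the log2 fold of Fgf3 in it was 2.41 against 2.89.

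Fgf15 was likewise highest in the mesoderm-like class at 46.1 CPM and next in the epiblast-like class at 36.7 CPM, 2.77-fold (2.54 to 3.03) and 2.70-fold (2.51 to 2.90) above other nuclei. The streak-like class was lower, at 20.6 CPM, and the haemato-endothelial-like class had 25.5 CPM. The remaining classes had 2.75 to 9.16 CPM. In both genes, then, the streak-like class lay below the epiblast-like and the mesoderm-like class, for Fgf15 by 1.78-fold (1.55 to 2.05) and 2.23-fold (1.93 to 2.60). Gm26793 overlaps Fgf15 in the RefSeq annotation, and the use of strand in the counting is not given in the sources used here, so reads of the overlap could not be assigned.

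Among the receptors, Fgfr1 and Fgfr2 were broad and Fgfr3 and Fgfr4 were mostly endodermal. Fgfr1 was highest in the mesoderm-like class at 190.9 CPM, 1.87-fold (1.80 to 1.95) above other nuclei. The extraembryonic ectoderm-like and streak-like classes followed at 154.1 and 152.0 CPM and did not differ beyond counting error. The epiblast-like, haemato-endothelial-like and node-like classes had 124.9, 115.3 and 95.3 CPM, the ectoplacental cone-like class 82.5 CPM and the parietal endoderm-like class 64.1 CPM. The low end was the visceral endoderm-like class at 31.5 CPM, where all other nuclei were 4.0-fold higher.

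Fgfr2 was highest in the extraembryonic ectoderm-like class, at 622.5 CPM, 2.53-fold (2.48 to 2.59) above other nuclei, and next in the ectoplacental cone-like class at 353.1 CPM. The 6 classes other than these and the visceral endoderm-like class spanned 221.2 to 279.6 CPM, and the visceral endoderm-like class had 178.9 CPM. The files list 2 starts for Fgfr2 that lie 2857159 bp apart, the far one outside the RefSeq gene. Its counts may cover that wide span, and the 13 peaks near the far start were kept apart.

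Fgfr3 stood at 35.1 CPM in the visceral endoderm-like class and 33.3 CPM in the parietal endoderm-like class, 8.23-fold (7.37 to 9.21) and 4.08-fold (3.47 to 4.77) above other nuclei. Their ratio was 1.05 (0.896 to 1.25). With finer clustering (resolution 2) the visceral endoderm-like log2 fold of Fgfr3 was 2.15 against 3.04. The haemato-endothelial-like class came next at 7.11 CPM, and the other 6 classes had 0.614 to 2.09 CPM with no neighbours distinguishable. Fgfr4 shared the endodermal lead, at 59.5 CPM in the visceral and 49.5 CPM in the parietal endoderm-like class, 6.85-fold (6.32 to 7.43) and 3.21-fold (2.82 to 3.65) above other nuclei. Unlike Fgfr3 it was next highest in the extraembryonic ectoderm-like class, at 16.3 CPM against 2.24 to 5.94 CPM in the rest. The parietal class carried visceral endoderm markers too, and their part in its receptor levels was not tested. The visceral endoderm-like class was thus high for Fgfr3 and Fgfr4 and lowest for Fgfr1 and Fgfr2.

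Shares of nuclei with a UMI were taken after thinning to 5000 UMIs per nucleus. For Fgf10, 74.3% of haemato-endothelial-like nuclei had a UMI against 2.04% of ectoplacental cone-like nuclei, the lowest class and so the background that free RNA could give. Fgf5 was seen in 78.7% of node-like nuclei against 8.46% of ectoplacental cone-like ones, and Fgf8 in 57.3% of streak-like nuclei against 9.07% of extraembryonic ectoderm-like ones. Before thinning the 3 leading shares were 77.0%, 89.5% and 76.9%. Fgf3 was seen in 26.9% of haemato-endothelial-like and 24.4% of mesoderm-like nuclei against 1.46% of ectoplacental cone-like nuclei, so most nuclei of its high classes had no UMI at this depth. Fgfr3 was seen in 18.4% of parietal and 15.4% of visceral endoderm-like nuclei, so for Fgf3 and Fgfr3 the class with the highest CPM was not the one with the highest share, although the intervals of each pair overlapped. Fgfr2 ranged from 56.4% of visceral endoderm-like to 93.3% of extraembryonic ectoderm-like nuclei. Thinning left out all nuclei with fewer UMIs, so that 11187 nuclei remained. Those left out ranged from 16 in the ectoplacental cone-like class to 361 in the epiblast-like class. They included 139 haemato-endothelial-like and 729 unnamed nuclei.

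Promoter accessibility differed less between classes than RNA: the leading promoter fold was below the leading RNA fold for every gene but Fgf15. It is given as FPM, fragments scaled to the class total as CPM is for UMIs, in peaks overlapping 1000 bp before to 100 bp after a start. By a rule of 1.5-fold with an interval above 1, 9 of the 10 promoters were higher in a class, again without Fgfr1, where 36.0% of 21226 gene promoters met it. For Fgf4, Fgf5, Fgf8, Fgf10, Fgfr1, Fgfr3 and Fgfr4 the 2 classes with the highest RNA level were also the 2 with the highest promoter level. The promoter intervals overlapped within each pair. How often the top 2 classes match in this way over all genes was not tested. For Fgf4 and Fgfr1 the streak-like promoter level was close behind, at 23.2 and 26.9 FPM against 23.4 and 27.1 FPM in the mesoderm-like class. The match of Fgfr1 rests on small differences. Its RNA in the extraembryonic ectoderm-like and streak-like classes, 154.1 and 152.0 CPM, did not differ beyond counting error. Its promoter levels spanned only 20.7 to 28.7 FPM. For Fgfr2 both the RNA and the promoter level were highest in the extraembryonic ectoderm-like class. The plot of RNA against accessibility shows all classes for each gene.

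**Figure D2:**
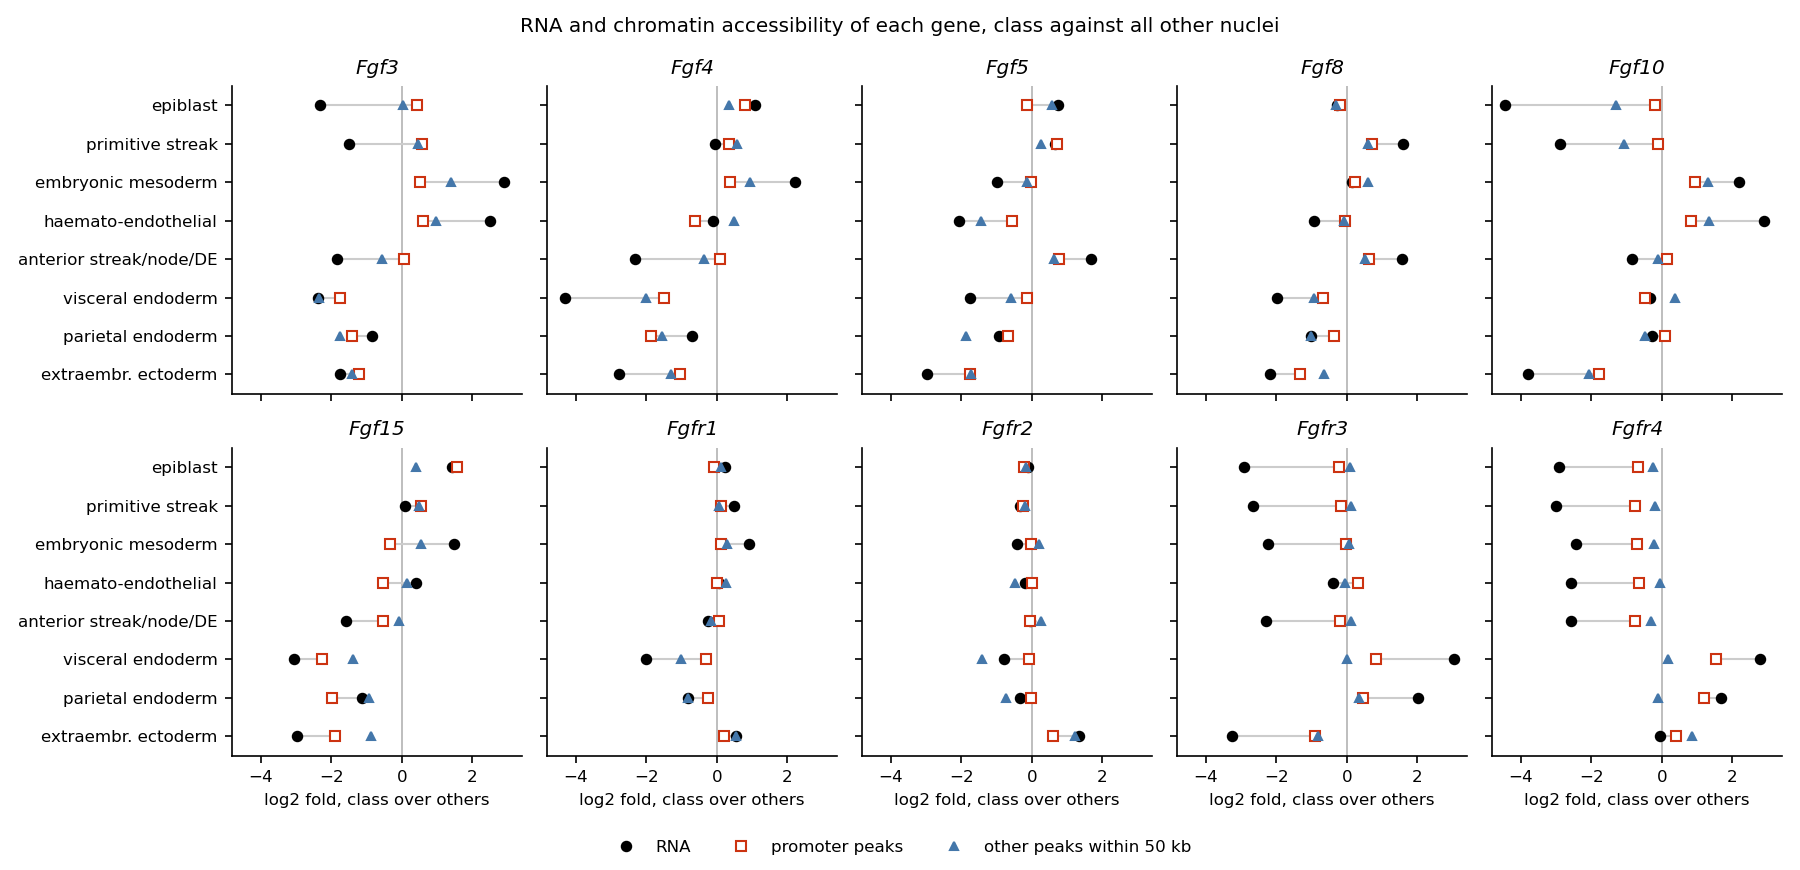
Log2 fold of each class over all other nuclei (horizontal axis) for RNA (black circles), promoter peaks (red squares) and other peaks within 50 kb (blue triangles), 1 panel per gene and 1 row for each of 8 classes. Fgf15 has its highest promoter fold in the epiblast-like class and its highest RNA fold in the mesoderm-like class, and the Fgfr1 promoter squares stay near 0.

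The Fgf8 promoter fold lay on the same side of 1 as the RNA fold in 8 of 8 classes, and that of Fgf10 in 6 of 8. For the other genes it did so in 5 to 7 of 8. The Fgf8 promoter interval included 1 in the haemato-endothelial-like (0.812 to 1.16) and parietal endoderm-like (0.529 to 1.12) classes. The Fgf10 promoter had 22.2 FPM in the haemato-endothelial-like and 22.0 FPM in the mesoderm-like class, 1.79-fold and 1.90-fold above other nuclei, 11.7 FPM in the epiblast-like, 9.64 FPM in the visceral endoderm-like and 4.02 FPM in the extraembryonic ectoderm-like class. The Fgf8 promoter had 33.5 FPM in the streak-like and 32.3 FPM in the node-like class, and the Fgf5 promoter had 29.0 and 30.6 FPM in the same classes. Folds at these promoters were 1.55 to 1.71, smaller than the 2.94 to 3.20 of Fgf8 RNA in both classes and Fgf5 RNA in the node-like class, while Fgf5 in the streak-like class had 1.58-fold by RNA and 1.64-fold at the promoter.

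On chromosome 7, the Fgf15 promoter was most accessible in the epiblast-like class, 39.2 FPM and 2.97-fold (2.74 to 3.22) above other nuclei, and stood at 16.6 FPM in the mesoderm-like class, 0.797-fold (0.698 to 0.906), where its RNA was highest. The Fgf4 promoter also led in the epiblast-like class, 27.3 FPM and 1.76-fold (1.61 to 1.92). The Fgf3 promoter was nearly level over the epiblast-like, streak-like, mesoderm-like and haemato-endothelial-like classes, at 18.6, 21.4, 20.7 and 22.2 FPM, although Fgf3 RNA was 17.6-fold higher in mesoderm-like than in epiblast-like nuclei. It passed the rule in the haemato-endothelial-like class at 1.51-fold (1.26 to 1.79), just over the threshold. This log2 fold of 0.59 was 0.57 at clustering resolution 0.5, 0.55 with peak counts as deposited and 0.42 with classes from accessibility clusters, each short of the rule.

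Among the receptor promoters, Fgfr4 had 85.2 FPM in the visceral and 81.2 FPM in the parietal endoderm-like class, 2.91-fold and 2.29-fold above other nuclei, 46.9 FPM in the extraembryonic ectoderm-like class and 22.0 to 25.1 FPM elsewhere. Fgfr3 had 58.9 and 49.2 FPM in the visceral and parietal endoderm-like classes, 44.3 FPM in the haemato-endothelial-like class, which overlapped the parietal interval, and 20.1 FPM in the extraembryonic ectoderm-like class. With doublet calls kept the visceral endoderm-like log2 fold of the Fgfr3 promoter was 0.57 against 0.84, short of the rule. The Fgfr2 promoter had 36.8 FPM in the extraembryonic ectoderm-like class, 1.5-fold (1.34 to 1.68), at the threshold. Its log2 fold of 0.59 was 0.57 at clustering resolution 0.5, 0.58 at resolution 2, 0.46 with doublet calls kept and 0.17 with windows of 2000 bp to each side, each short of the rule. The Fgfr1 promoter had 20.7 to 28.7 FPM in all 8 classes.

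Of the 187 peaks near the genes other than those at the far Fgfr2 start, 186 had at least 50 fragments, and 96 (51.6%) were at least 2-fold higher in a class with an interval above 1. Over all 224946 such peaks 54.2% met this rule, so the share near these genes was close to the background. Of the 186, 26 were higher in the mesoderm-like class, where 9.63% of all peaks were, and 22 in the extraembryonic ectoderm-like class, where 11.1% were, a share near the background. The neighbourhoods of Fgf3, Fgf4 and Fgf15 overlap, so that 25 of the 200 peaks lay within 50 kb of more than 1 of them, and each was given to the nearest start. The plot of peaks by distance shows where the higher peaks lie.

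**Figure D3:**
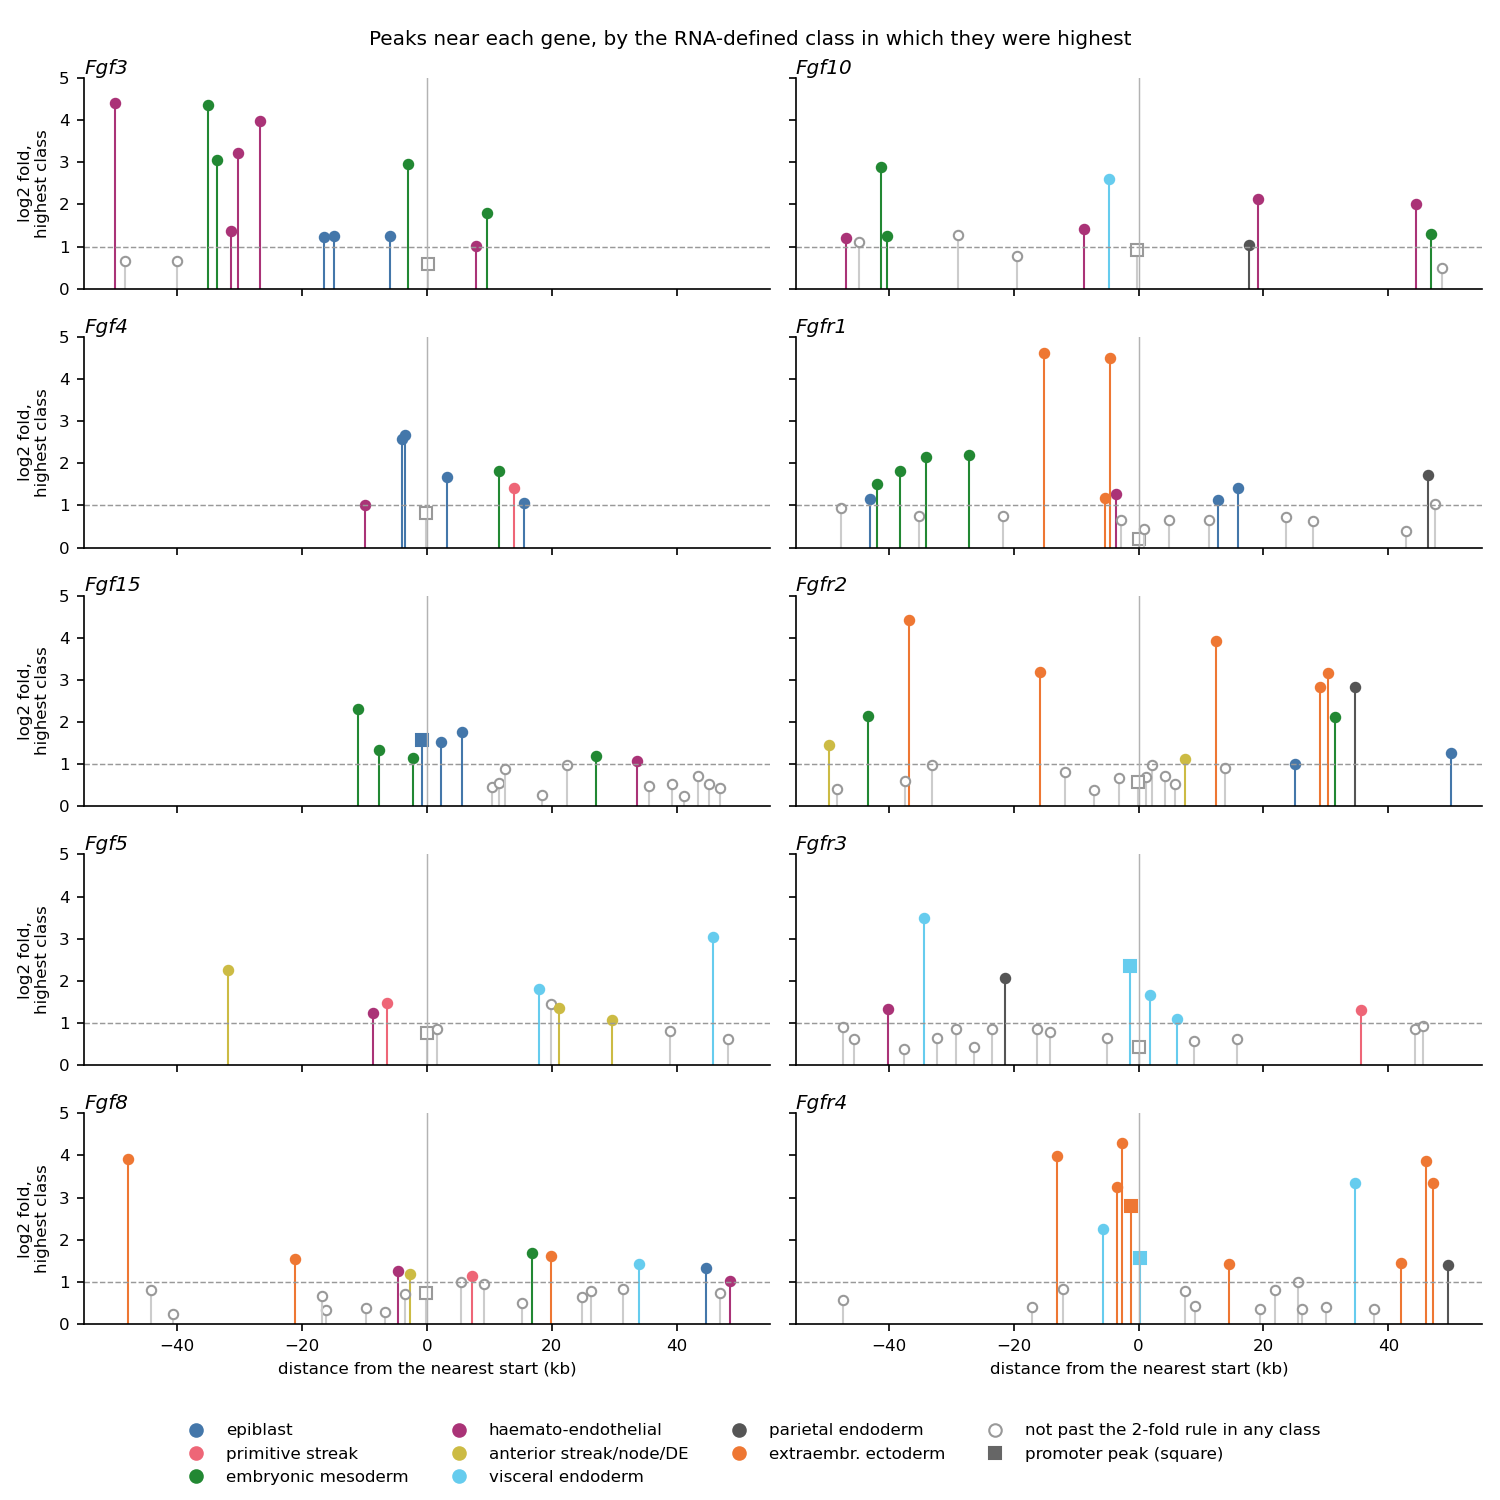
Peaks within 50 kb of each gene's nearest start by distance in kb (horizontal axis) and log2 fold of the highest class over all other nuclei (vertical axis), coloured by that class where the peak passed the 2-fold rule, with open grey markers for the others, squares for promoter peaks and a dashed line at 2-fold. The tallest marks are extraembryonic ectoderm-like peaks at Fgfr1, Fgfr2, Fgfr4 and Fgf8 and mesoderm-like or haemato-endothelial-like peaks before Fgf3.

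Fgf3 had the largest folds of the ligands, and they lay before its start. A peak 49.9 kb upstream (chr7:144788342-144789130) had 26.3 FPM in the haemato-endothelial-like class, 21.1-fold above other nuclei, and one 26.7 kb upstream (chr7:144811483-144812372) had 43.2 FPM there, 15.8-fold, with 11.5 FPM in the mesoderm-like class. A peak 35.0 kb upstream (chr7:144803196-144804048) had 26.8 FPM in the mesoderm-like class, 20.7-fold, and 4.03 FPM in the haemato-endothelial-like class. These 3 peaks had the largest folds at this gene. Of the 15 peaks given to Fgf3, 12 passed in at least 1 class, against 54.2% of all peaks.

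Around Fgf4 and Fgf15 the peaks split by class. Near Fgf4, peaks 4.0 kb and 3.5 kb upstream and one 3.2 kb downstream inside the gene (the last chosen after its values were seen) led in the epiblast-like class, at 5.95-fold, 6.36-fold and 3.21-fold, while one 11.5 kb downstream (chr7:144872393-144873285) led in the mesoderm-like class at 3.54-fold. The epiblast-like peaks were weak, at 2.18 to 4.52 FPM. Near Fgf15 the promoter peak and 2 peaks 2.2 kb and 5.6 kb after its start led in the epiblast-like class, at 2.97-fold, 2.90-fold and 3.41-fold. The peak 11.1 kb before its start (chr7:144885105-144885661) led in the mesoderm-like class at 4.95-fold, with 4.53 FPM against 0.676 FPM in the epiblast-like class. The map of the locus shows all its peaks. The peak at 2.2 kb, which also overlaps the promoter window of Gm26793, and one 7.6 kb before the Fgf15 start (chr7:144888424-144889347) were chosen after their values were seen. The latter had 41.7 FPM in the mesoderm-like, 41.3 FPM in the streak-like and 18.9 FPM in the epiblast-like class.

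**Figure D4:**
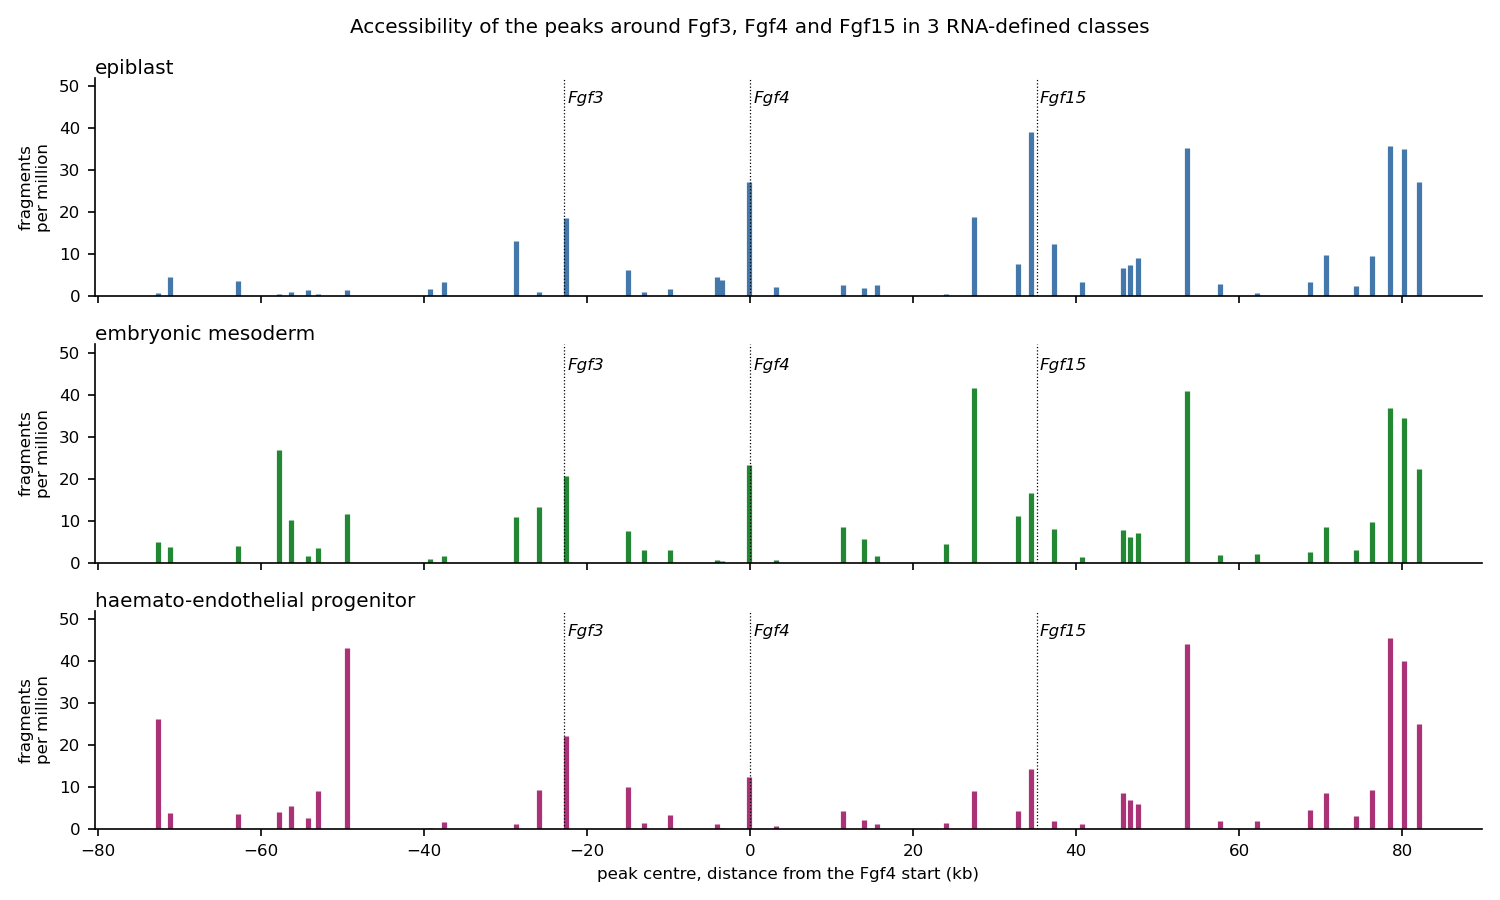
Accessibility of the peaks around Fgf3, Fgf4 and Fgf15 in FPM (vertical axis) in the epiblast-like, mesoderm-like and haemato-endothelial-like RNA classes, by distance of the peak centre from the Fgf4 start in kb (horizontal axis), with dotted lines at the 3 starts. Tall mesoderm-like or haemato-endothelial-like bars stand before Fgf3 where the epiblast-like panel is near 0, and the Fgf15 promoter bar is tallest in the epiblast-like panel at 39.2 FPM.

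A peak 44.4 kb inside Fgf10 (chr13:118758636-118759520) had 28.7 FPM in the haemato-endothelial-like and 23.3 FPM in the mesoderm-like class, 4.03-fold in the former, against 0.522 FPM in the epiblast-like class. This peak was named after its values were seen, since 3 weaker ones had larger folds: 41.2 kb upstream 7.38-fold in the mesoderm-like class, 4.7 kb upstream 6.06-fold in the visceral endoderm-like class, and 19.1 kb downstream 4.35-fold in the haemato-endothelial-like class. At Fgf5, a peak 45.8 kb downstream (chr5:98299775-98300736) led in the visceral endoderm-like class at 8.19-fold and 10.5 FPM, although Fgf5 RNA there was 0.298-fold that of other nuclei. Peaks 31.9 kb upstream and 18.0 kb downstream led in the node-like class at 4.75-fold and in the visceral endoderm-like class at 3.49-fold.

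Fgf8 had the opposite of its RNA in its leading peak. The peak 47.9 kb upstream (chr19:45790362-45791280) had 30.7 FPM in the extraembryonic ectoderm-like class, 15.1-fold above other nuclei, and 1.08 to 2.58 FPM in the other classes, while Fgf8 RNA was at its low end there. Peaks 16.8 kb and 19.8 kb downstream led in the mesoderm-like class at 3.24-fold and the extraembryonic ectoderm-like class at 3.04-fold. Peaks are assigned by distance only, and whether any of them acts on the nearest gene was not tested.

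At 3 of 4 receptor genes the peak of largest fold led in the extraembryonic ectoderm-like class. Fgfr1 had one 15.1 kb upstream (chr8:25503248-25504133) at 24.6 FPM and 24.6-fold, and one inside the gene 4.6 kb before its second start (chr8:25527230-25528133) at 39.8 FPM and 22.4-fold. A peak 27.2 kb upstream led in the mesoderm-like class at 4.57-fold. Of the 24 Fgfr1 peaks, 3 passed in the extraembryonic ectoderm-like class, a share near the 11.1% of all peaks. In the mesoderm-like class 4 passed, against 9.63% of all peaks. Fgfr2 had an extraembryonic ectoderm-like peak 12.4 kb inside the gene (chr7:130253335-130254173) at 36.4 FPM and 15.1-fold, one 36.8 kb upstream at 21.3-fold and one 15.7 kb upstream at 9.15-fold, and 7 of its 24 peaks passed in that class, against 11.1% of all peaks.

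Fgfr4 had 8 of its 23 peaks higher in the extraembryonic ectoderm-like class, against 11.1% of all peaks. In the visceral and parietal endoderm-like classes 5 passed in each, where 27683 and 19563 of all 224946 peaks did. The largest folds were 2.6 kb upstream (chr13:55149678-55150379; 14.6 FPM, 19.7-fold), 13.0 kb upstream (15.8-fold) and 46.0 kb downstream (14.6-fold), all in the extraembryonic ectoderm-like class, where Fgfr4 RNA was 0.973-fold (0.856 to 1.10) that of other nuclei. Of its 2 promoter peaks, the one 1.2 kb upstream also led in that class, at 26.7 FPM and 6.99-fold, with 12.3 FPM in the visceral endoderm-like class. The peak at its start led in the visceral endoderm-like class at 72.9 FPM and 2.97-fold. Fgfr3 had visceral endoderm-like peaks 34.4 kb upstream (11.3-fold), 1.3 kb upstream, whose end reaches into the promoter window (chr5:33720030-33720777; 19.9 FPM, 5.14-fold) and one led by the parietal endoderm-like class 21.3 kb upstream (4.23-fold). At this receptor 0 of the 22 peaks passed in the extraembryonic ectoderm-like class, against 11.1% of all peaks.

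Summed over all peaks within 50 kb that are at no promoter, accessibility near Fgf10 was 2.46-fold higher in the mesoderm-like and 2.53-fold in the haemato-endothelial-like class, and near Fgfr2 it was 2.36-fold higher in the extraembryonic ectoderm-like class. Distal peaks near Fgf15 were 1.46-fold (1.40 to 1.52) higher in the mesoderm-like class, 1.41-fold (1.35 to 1.47) in the streak-like class and 1.33-fold in the epiblast-like class. These sums share peaks with those of Fgf3 and Fgf4, which were 2.62-fold and 1.93-fold higher in the mesoderm-like class. Near Fgfr4 the sum was 1.80-fold higher in the extraembryonic ectoderm-like and 1.12-fold in the visceral endoderm-like class, the reverse of its promoter and RNA, and near Fgfr3 it was 1.01-fold (0.958 to 1.06) in the visceral endoderm-like class.

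The rest of the pathway was read from 4 lists of 16 genes each, and genes of these lists are given in the class where their fold over all other nuclei was largest. Of the other FGF family genes 14 had at least 50 UMIs and 11 of these were 2-fold higher in a class, against 41.9% of all genes. The list holds the intracellular family members Fgf11, Fgf12, Fgf13 and Fgf14, which are not secreted ligands, and Fgf11, Fgf13 and Fgf14 were among those that passed. Fgf14 had its largest fold in the node-like class (93.1 CPM, 4.60-fold), Fgf17, a relative of Fgf8, in the streak-like class (6.53 CPM, 3.67-fold), Fgf9 in the epiblast-like class (3.16-fold), Fgf1 in the visceral endoderm-like class (2.59-fold) and Fgf13 in the haemato-endothelial-like class (2.46-fold). The CPM of Fgf9 was higher in the streak-like class, 4.39 against 3.40 in the epiblast-like class.

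Co-receptor and heparan sulfate genes also passed often, 11 of 16 (68.8%) against 41.9% of all genes. The gene of largest fold led in the visceral endoderm-like class. Klb, the co-receptor for Fgf15, had 60.1 CPM there and 56.8 CPM in the parietal endoderm-like class, 12.7-fold (11.6 to 14.1) for the former, against 1.29 to 2.06 CPM in all other classes. Klb and Fgfr4 were thus high in the same classes, where Fgf15 was at 2.75 and 9.16 CPM. The glypican Gpc3 (3.79-fold), Flrt3 (2.90-fold) and the sulfatase Sulf2 (2.72-fold) also had their largest folds in the visceral endoderm-like class. Flrt1 had its own in the epiblast-like class (5.01-fold) and Flrt2 in the node-like class (4.10-fold).

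Transduction genes were more even, with 4 of 16 passing, against 41.9% of all genes. Frs3 had its largest fold in the visceral endoderm-like class (5.55-fold), Gab1 and Frs2 in the ectoplacental cone-like class (3.05-fold and 2.19-fold) and the kinase Braf in the haemato-endothelial-like class (2.67-fold). Feedback and target genes had 7 of 16, a share close to that of all genes. Spred3, Etv1 and Spry2 had their largest folds in the epiblast-like class (4.17-fold, 2.32-fold and 2.08-fold), Il17rd in the node-like class (2.09-fold), Ier3 in the extraembryonic ectoderm-like class (3.46-fold) and Cnpy1 in the visceral endoderm-like class (2.22-fold). Etv1, an ETS factor that FGF signalling switches on, had 147.5 CPM in the streak-like class, 131.9 CPM in the epiblast-like class and 3.97 CPM in the visceral endoderm-like class. Cnpy1 had 9.03 CPM in the streak-like and 8.60 CPM in the visceral endoderm-like class.

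In the ectoplacental cone-like class 13 of the 16 feedback and target genes were at least 2-fold lower than in other nuclei, with a median log2 fold of -2.23, against -0.16 over all genes tested, of which 18.9% were lower by this rule. In the extraembryonic ectoderm-like and visceral endoderm-like classes 6 of the 16 were lower in each, against 24.3% and 24.7% of all genes. Transduction genes had a median of 0.20 in the ectoplacental cone-like class, and 0 of them were lower by the rule. The plot of the feedback list shows its genes by class.

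**Figure D5:**
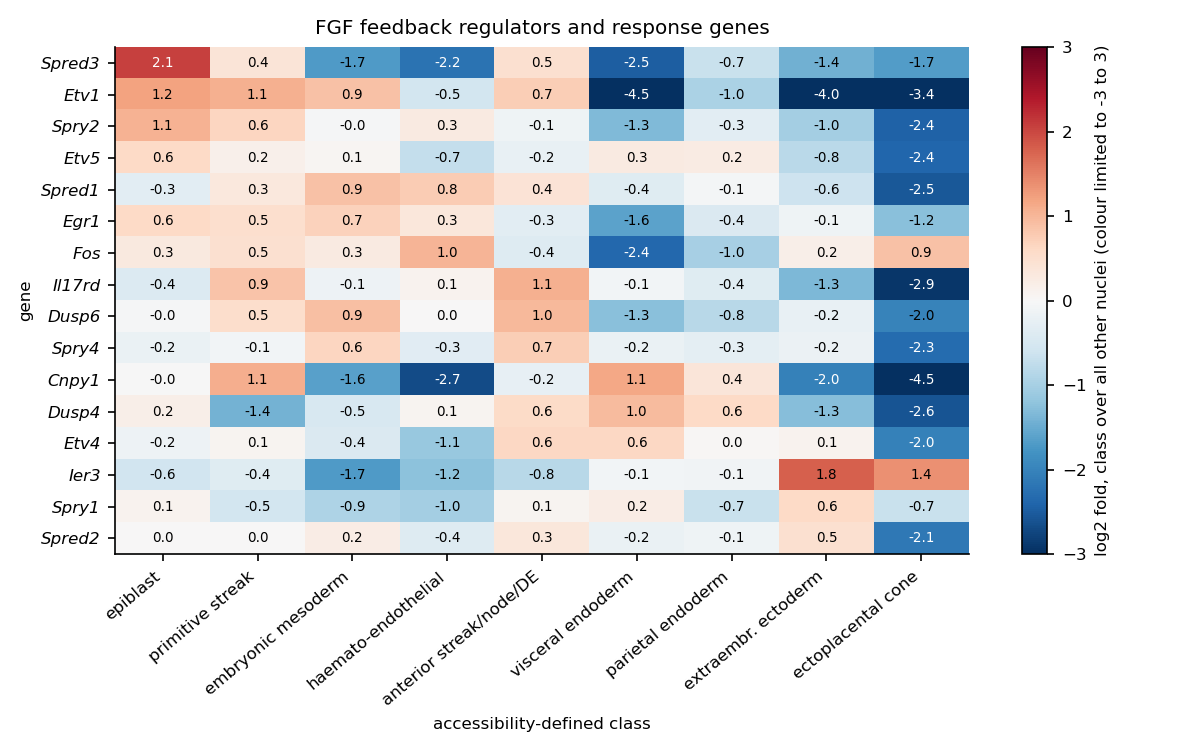
RNA of the 16 feedback and target genes (rows) in the 9 accessibility classes (columns), coloured by the log2 fold of a class over all other nuclei, which is printed in each cell. The ectoplacental cone-like column is low for 13 of 16 genes, and Spred3, Etv1 and Spry2 have their largest folds in the epiblast-like column.

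Genes with patterns most like each member were taken over the 19 accessibility clusters of at least 100 nuclei, by Pearson correlation of log2(CPM + 1). Clusters of 25 and 15 nuclei were left out. These are descriptions, and clusters of 1 library share its depth. Fgf10 was nearest to Nrp1 (r = 0.967), a receptor of vascular growth factor and semaphorins, then Smad1 and Bmper of the BMP pathway. Fgf3 was nearest to Kdr (0.958), the receptor of vascular growth factor in blood and vessel progenitors, then Inka1 and Zeb1.

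Fgf4 was nearest to its neighbour Fgf15 (0.894), then Wdcp and Eif4e3, and Fgf15 to Pcolce2 (0.948), Fat4 and Cnn1. Fgf5 was nearest to Tox3 (0.943) and Igfbp2, and Fgf8 to Zfhx4 (0.886), Ror1 and Mecom. Of the receptors, Fgfr1 was nearest to Itgb5 (0.968), Fndc3c1 and Aspg, Fgfr2 to Sh2d3c (0.939), Nedd4l and Usp54, Fgfr3 to Stat5b (0.967), Atp6v0a1 and Synj1, and Fgfr4 to Pnma5 (0.975), Manba and 0610040J01Rik. Between members, Fgf5 and Fgf8 had r = 0.87 and Fgfr3 and Fgfr4 0.80, while Fgfr1 ran against Fgfr3 at -0.79 and against Fgfr4 at -0.76.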

How the data were processed

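Nuclear RNA and accessible chromatin of 1 pool of E7.0 mouse embryos were deposited as 1 matrix of whole-number counts, UMI counts per gene and counts per accessibility peak, not normalized. Per the file headers and the submitters' processing notes, the authors made these counts with Cell Ranger ARC 2.0.0 on mm10. Strand use in the counting is not given in the sources used here. Totals were 182201512 UMIs and 273131304 peak counts in 15341 barcodes. Of the nonzero peak values 86.4% were even, so fragments were estimated as the count divided by 2 and rounded up.

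Barcodes needed 1000 UMIs, 500 genes and 1000 peak counts, with a mitochondrial share of 20% or less, and 1154 doublet calls (7.52%) by Scrublet in scanpy 1.11.5 were removed, leaving 12796 nuclei with medians of 10471 UMIs and 17350 peak counts. RNA and peaks were clustered apart (30 components, 15 neighbours, leidenalg 0.10.2, resolution 1), and clusters were named from the RNA of 15 marker lists. A name needed a mean log2 ratio of 0.5 and 3 markers raised 1.5-fold. No name was given where another list had more markers among the 10 leading genes. The same held where another list with 3 raised markers passed 0.5 of the leading score with as many markers there. Clusters of low median UMIs with none of their markers there also stayed unnamed. Classes under 100 nuclei were left out. The 200 peaks near the 10 genes were left out of the accessibility clustering, and the 10 genes and 64 pathway genes out of the RNA clustering. Other peaks near the pathway genes stayed in the accessibility clustering, in whose classes pathway RNA was read. Counts were summed per class and divided by those of all other nuclei, with exact conditional binomial intervals (scipy 1.17.1). Peaks were given to the nearest listed start. Code was tested on simulated counts. The genes, marker lists, pathway lists and rules were chosen with earlier results of these data known. Genes named from a list were those with at least 200 UMIs past the rule, up to 6 by fold, and peaks named were the 3 of largest fold per gene and promoter peaks, apart from those said to be chosen after their values were seen. For likeness, the nearest genes over clusters are named, and 1 of them is not reported here.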

Additional observations from a re-analysis of the deposited data

How the results depend on the processing

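The count of 9 genes at least 2-fold higher in a class by RNA was 9 under all 9 alternatives (clustering resolution 0.5 and 2, 20 components, a minimum of 2000 UMIs and 2000 peak counts, doublet calls kept, the genes kept in the clustering, classes from RNA, no filter on low counts, and thinning to 5000 UMIs). The count of promoters ranged from 7 to 9 over 10 alternatives. The count of peaks was 54 when only those within 25 kb were taken, against 96 within 50 kb, as fewer peaks were tested, and it was at most 102 otherwise. Of 90 recomputed RNA folds of single genes, 54 moved by less than their interval, 36 by more, and 0 changed direction. Of 100 promoter folds, 90 stayed within their interval, 9 moved and 1 changed direction: that of Fgfr1 in the extraembryonic ectoderm-like class was -0.02 (log2) with windows of 2000 bp to each side, against 0.21. The largest moves of RNA were Fgf4 in the mesoderm-like class, from 2.22 to 3.0 (log2) at the deeper minimum, and Fgfr3 in the visceral endoderm-like class, from 3.04 to 2.15 at resolution 2. The cause of these moves was not tested, and the classes also changed in size. The mesoderm-like class held 733 nuclei at the deeper minimum and 1835 at resolution 0.5, against 1272. The ectoplacental cone-like class held 170 and 608 nuclei under these settings, against 359. The Fgf3 and Fgfr2 promoter folds lie at the threshold and fell short of it under 3 and 4 alternatives, and the Fgfr3 promoter fold in the visceral endoderm-like class (0.84, log2) was short of it with doublet calls kept (0.57). No test over replicates or paired samples was possible because each assay had 1 library. The assays themselves were joined nucleus by nucleus. Depth limits Fgf4 most, with 425 UMIs in all. Embryos could not be told apart, and no variation between embryos or libraries could be measured.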

Other observations

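Nuclei in no named class also carried these ligands. An unnamed accessibility cluster of 453 nuclei with Fzd5, Foxq1 and Sfrp5 among its leading genes had 318.9 CPM of Fgf5, 138.3 CPM of Fgf8 and 144.4 CPM of Fgf10. It also had 14.5 CPM of Fgfr3 and 25.45 CPM of Fgfr4. Unnamed nuclei counted among the other nuclei in all folds of named classes. Within the node-like class, the cluster of 248 nuclei led by Cer1, with Lefty1 and Sox17 among its top genes, had 269.1 CPM of Fgf8. An unnamed cluster of 25 nuclei with Ifitm3 and Prdm1, genes used by primordial germ cells, among its leading genes had 527.9 CPM of Fgf8. These clusters were picked after their values were seen, and the last is small.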
